A study of Mus musculus with 9 samples.

Results

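Hand2 and Hand2os1 are neighbouring genes on opposite strands of mouse chromosome 8, and the counts on both were compared in whole uterus after injury and after transplantation of epithelial cells. The members were the features listed under exactly these names, 2 of the 55228 features counted in each library. Total uterine RNA, depleted of ribosomal RNA, was sequenced on day 7 from 3 mice each of a sham, an injury and a CRC group, 1 library per animal. All animals were wild-type (WT) C57BL females at 8 weeks of age. The sham group had the operation alone. Mice of the injury group were wounded by 10 passes of a 27-gauge needle inside the uterus and then given 50 μL of PBS. The CRC group received the same injury and then 50 μL of a suspension of WT CRCs. CRCs are conditionally reprogrammed mouse endometrial epithelial cells, which are grown together with irradiated 3T3 feeder cells. Since host and transplant are both mouse, RNA of the transplanted cells and of the host cannot be told apart in these counts.

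Hand2 is a basic helix-loop-helix transcription factor that stromal cells of the endometrium make under progesterone. In the uterus it is known to hold back fibroblast growth factor ligands that the stroma sends to the epithelium, and so to limit growth of epithelial cells. Hand2os1 is a long non-coding RNA gene that starts next to Hand2 and runs the other way, and it has been studied mainly for the control of Hand2 in the embryonic heart.

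The features held between 280886 and 327883 counts per library, 0.776% to 0.898% of all records of a library, so that 1 count was worth 3.05 to 3.70 CPM, the unit of counts scaled by TMM to libraries of equal size. A floor of 3 counts in a library corresponded to 9.14 to 11.1 CPM. The libraries were prepared without molecular identifiers named in the sources used here, so intervals and floors cover counting error only. The sham libraries stood further from each other than those of the other groups. Their mean distance to the rest of the group in log2 CPM was 49.1 to 55.8, compared with 38.6 to 40.6 for injury and 35.3 to 35.6 for CRC. Records that fell on more than 1 feature and were left uncounted numbered 2571 in sham replicate 1, 28622 in sham replicate 2 and 24851 in sham replicate 3, and 1751 to 6470 in the other 6 libraries.

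In GENCODE M21 on GRCm38, Hand2 (ENSMUSG00000038193.4) lies on the plus strand of chromosome 8 from 57320983 to 57324633, with 1 transcript of 2 exons and 2351 exon bases. Hand2os1 (ENSMUSG00000100510.7) lies on the minus strand from 57281117 to 57324233, with 37 transcripts that merge into 13 exon blocks and 12840 exon bases. The largest block, 6284 bases from 57314288 to 57320571, lies before the start of Hand2. Exons of both genes overlap over 461 bases, which are 19.6% of the exon bases of Hand2 and 3.59% of those of Hand2os1. All of the overlap lies in untranslated parts of Hand2, with 246 of 924 bases at the 5′ end and 215 of 776 bases at the 3′ end. It involves 3 transcripts of Hand2os1, and the coding parts of Hand2, of 555 and 96 bases, hold 0 overlapping bases. The strand setting used in counting is not given in the sources used here. Records listed as lying in no feature made up 87.3% to 91.6% of a library, and some known genes held far fewer counts than the feature opposite, as with 159 on the smooth muscle gene Tagln and 130075 on Gm48529 across it. Each count is therefore given as that on the named feature. Which strand the counted RNA came from cannot be told from these counts for either member. Reads under the name of Hand2os1 within the 461 overlapping bases may be of Hand2, and the reverse. The limit is not confined to the overlap. Outside it, reads counted on a member may come from the other strand, and reads of Hand2 may lie among the records in no feature. Neither was tested.

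**Figure D1:**
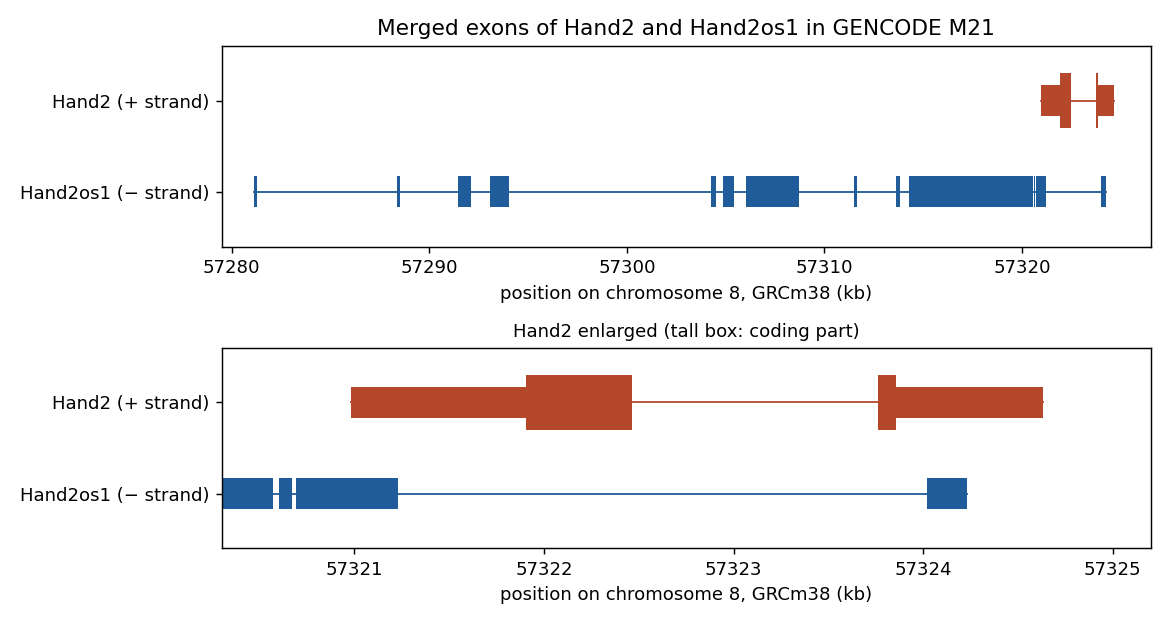
Exons of Hand2 (red, plus strand) and Hand2os1 (blue, minus strand, transcripts merged) are drawn to scale along chromosome 8 of GRCm38 in kb, with the whole locus above and Hand2 enlarged below. Boxes are exons, tall boxes are the coding parts of Hand2, and the 461 overlapping bases sit under the low boxes at both ends of Hand2.

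The start region is shown because both members begin there. In RefSeq on GRCm38.p6 the start of Hand2 is at 57320983 and that of Hand2os1 at 57320859, 124 bases apart and pointing away from each other. The 250 bases before the start of Hand2, chr8:57320733-57320982 on the plus strand, are given here with matches to the E-box, CANNTG, and to CCAAT on either strand in capitals.
Hand2 start region: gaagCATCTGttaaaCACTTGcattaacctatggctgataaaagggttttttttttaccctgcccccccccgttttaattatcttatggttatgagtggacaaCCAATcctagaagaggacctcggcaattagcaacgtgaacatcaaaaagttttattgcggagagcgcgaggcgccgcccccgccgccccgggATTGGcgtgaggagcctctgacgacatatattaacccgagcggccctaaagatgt
The E-box is the general target of helix-loop-helix factors, and it matched at 57320737 to 57320742 and at 57320748 to 57320753. Of 32851 promoter windows of this length, 66.2% held an E-box. CCAAT matched at 57320836 to 57320840 on the plus strand and at 57320928 to 57320932 on the minus strand, and 33.9% of the windows held it. The TATA box TATAAA (12.4% of windows), the core TGTTCT of progesterone receptor sites (16.1%), the GATA site GATAAG (6.55%) and the Gli site GACCACCCA (0.225%) had no match on either strand. The searched motifs did not overlap one another in this window.

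Few counts fell on Hand2. The counts were 4, 6 and 2 in sham replicates 1 to 3, 4, 0 and 1 in the injury replicates, and 3, 2 and 1 in the CRC replicates. On the CPM scale the sham libraries were at 12.97, 22.2 and 7.15, the injury libraries at 13.9, 0 and 3.51, and the CRC libraries at 9.14, 6.15 and 3.05. Sham replicate 2 was the highest and injury replicate 2 the lowest of the 9 libraries, and all 3 groups overlapped. The mean was 14.1 ± 7.59 CPM in sham, 6.11 ± 3.04 in CRC and 5.80 ± 7.22 in injury (SD, n = 3 each), so the order ran from sham through CRC to injury. Sham lay 8 CPM above CRC, near the SD of 7.59 within sham, and CRC and injury did not differ beyond their spread. CRC lay 0.315 CPM above injury, and below it without injury replicate 2 (-2.58), injury replicate 3 (-0.829) or CRC replicate 1 (-1.20). The count of 0 in injury replicate 2 allows up to 3 counts, or 10.5 CPM, in that library.

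With 23 counts in all, Hand2 did not reach the filter and was not among the 3722 features tested, and 6334 features had more. Without the filter, edgeR's quasi-likelihood test gave a log2 fold change of -1.14 (SE 1.27, adjusted p = 0.739) between injury and sham, -1.11 (SE 1.24, adjusted p = 0.633) between CRC and sham and 0.03 (SE 1.33, adjusted p = 1) between CRC and injury. In an exact two-sided permutation test of the mean CPM, which cannot go below 0.1 with 3 mice per group, p was 0.3 between injury and sham, 0.2 between CRC and sham and 1 between CRC and injury. The ratio of summed counts per scaled library size was 0.417 between injury and sham, with an exact 95% interval of 0.115 to 1.27. It was 0.437 (0.135 to 1.26) between CRC and sham and 1.05 (0.267 to 4.34) between CRC and injury. All 3 intervals included 1, and no difference of Hand2 between groups was detected at these counts. The sham libraries are shared by 2 of these comparisons, which are therefore not independent of each other.

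Hand2os1 received more counts, 190 in all, and passed the filter, being 1 of 3722 features tested. The sham libraries held 17, 44 and 24 of these, the injury libraries 13, 17 and 14, and the CRC libraries 24, 14 and 23. Scaled to CPM, the sham libraries had 55.1, 163 and 85.8, the injury libraries 45.1, 59.8 and 49.1, and the CRC libraries 73.1, 43.0 and 70.2. Sham replicate 2 was the highest library by far. Sham replicate 1 lay below injury replicate 2, and the CRC libraries reached from below the injury libraries to between sham replicates 1 and 3, so every pair of groups overlapped. The group means were 101 ± 55.5 CPM in sham, 62.1 ± 16.6 in CRC and 51.3 ± 7.58 in injury (SD, n = 3 each), and no neighbours in that order differed beyond their spread. The ratio of summed counts per scaled library size was 0.518 (exact 95% interval 0.351 to 0.754) between injury and sham, 0.627 (0.444 to 0.882) between CRC and sham and 1.21 (0.809 to 1.83) between CRC and injury, and these intervals leave out the spread between mice.

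**Figure D2:**
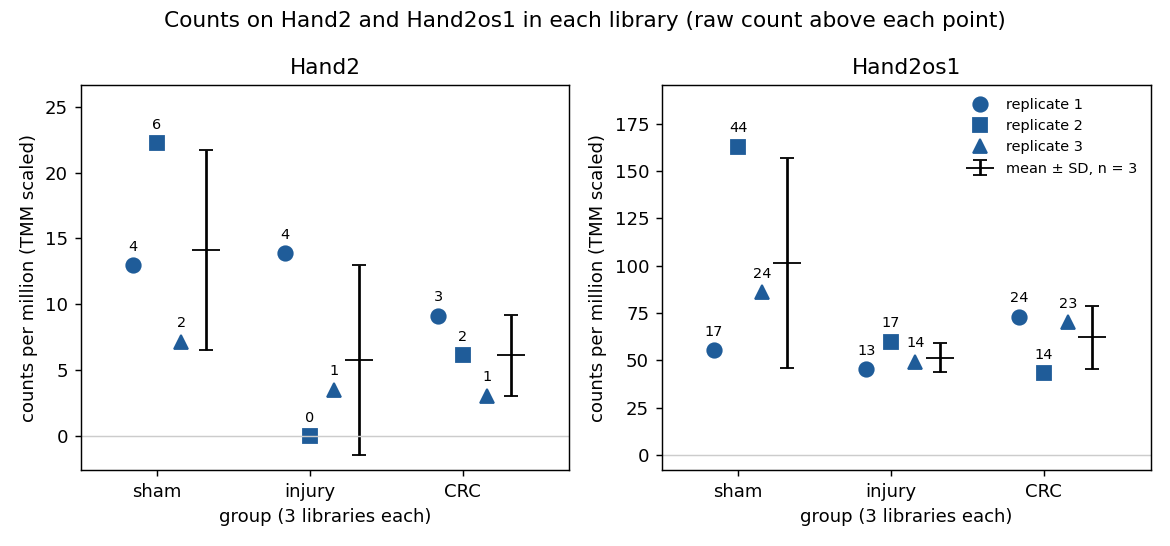
TMM-scaled CPM of Hand2 (left) and Hand2os1 (right) are plotted for each of the 3 libraries per group, with the raw count above each point and the group mean ± SD beside it. Sham replicate 2 is the highest library in both panels, with 6 counts on Hand2 and 44 on Hand2os1, and the groups overlap in both.

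Between injury and sham, the comparison of the wound and PBS with the operation alone, Hand2os1 had a log2 fold change of -0.96 (SE 0.41) and a 95% interval of -1.81 to -0.12. Its Benjamini-Hochberg adjusted p was 0.325 in edgeR's quasi-likelihood test, with an unadjusted p of 0.0270. The member was thus not called at an adjusted p under 0.05, as 16 of the 3722 tested features (0.430%) were, 10 of them higher (0.269%) and 6 lower (0.161%), while 12.6% of all features had an unadjusted p under 0.05. DESeq2's Wald test gave an unadjusted p of 0.0394 and no adjusted p for it. The exact permutation test of the mean CPM gave p = 0.2. Without sham replicate 2 the log2 fold change was -0.45 and the adjusted p of edgeR's quasi-likelihood test 0.763, and without sham replicate 1 they were -1.26 and 0.0727. The count of 16 called features was itself 154 without sham replicate 1, 3 without sham replicate 3, 8, 3 and 4 without injury replicates 1, 2 and 3, and 10 without CRC replicate 3.

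Between CRC and sham, Hand2os1 had a log2 fold change of -0.69 (SE 0.40, 95% interval -1.51 to 0.13) and an adjusted p of 0.238 in edgeR's quasi-likelihood test. It was not among the 746 called features, 20.0% of those tested in that comparison, where 32.1% had an unadjusted p under 0.05. DESeq2's Wald test gave an adjusted p of 0.311, and the exact permutation p was 0.4. Leaving out sham replicate 2 gave -0.20 with an adjusted p of 0.789 in edgeR's quasi-likelihood test. Without sham replicate 1 they were -1.01 and 0.0653 in the same test, and with library sizes that include reads outside features -0.38 and 0.505.

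Between CRC and injury, the comparison of cells with PBS after the same wound, the log2 fold change of Hand2os1 was 0.27 (SE 0.43, 95% interval -0.60 to 1.15), with an adjusted p of 0.757 in edgeR's quasi-likelihood test. It was not called, compared with 481 called features (12.9%) and 24.7% of features at an unadjusted p under 0.05. The interval corresponds to a fold of 0.661 to 2.21. With 1 library left out the log2 fold change ranged from 0.14 without CRC replicate 1 to 0.47 without CRC replicate 2. DESeq2's Wald test gave an adjusted p of 0.814, and the exact permutation p was 0.4.

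The sum of both features is the same whichever of them a read in the overlap was counted on. It leaves out reads at the locus that were listed in no feature or on more than 1 feature, so it may still depend on the strand setting. It came to 21, 50 and 26 counts for the sham libraries, 17, 17 and 15 for the injury libraries, and 27, 16 and 24 for the CRC libraries. Expressed as CPM these were 68.1, 185 and 93.0, then 59.0, 59.8 and 52.6, and then 82.2, 49.2 and 73.2. All injury libraries lay below all sham libraries, which was also the case, in either direction, for 15.7% of tested features, beside the 0.430% called, whereas CRC overlapped both other groups. The injury libraries were close together at 57.1 ± 3.92 CPM, compared with 115 ± 61.6 in sham and 68.2 ± 17.1 in CRC (SD, n = 3 each). The log2 fold change between injury and sham was -1.0 (SE 0.39), with an adjusted p of 0.270 in edgeR's quasi-likelihood test and an exact permutation p of 0.1, the lowest that 3 against 3 allows. Without sham replicate 2 it was -0.49 (adjusted p = 0.729 in edgeR's quasi-likelihood test). Between CRC and sham it was -0.75 (SE 0.38, adjusted p = 0.172 in edgeR's quasi-likelihood test), and it was -1.04 without sham replicate 1 and -0.26 without sham replicate 2 (adjusted p = 0.0451 and 0.704 in the same test). Between CRC and injury it was 0.25 (SE 0.40, adjusted p = 0.763 in edgeR's quasi-likelihood test). With all libraries, no difference of the sum was called in edgeR's quasi-likelihood test. In whole tissue, a change in the number of cells that make these RNAs and a change in RNA per cell could not be told apart. The ratio of summed counts was 0.506 (exact 95% counting interval 0.351 to 0.720) between injury and sham, 0.604 (0.435 to 0.833) between CRC and sham and 1.19 (0.814 to 1.76) between CRC and injury.

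Of the counts at the locus, Hand2 held 19.0%, 12% and 7.69% in the sham libraries, 23.5%, 0% and 6.67% in the injury libraries, and 11.1%, 12.5% and 4.17% in the CRC libraries. The shares were low in all 9 libraries and overlapped between the groups, with exact permutation p of 0.7, 0.5 and 1 for injury against sham, CRC against sham and CRC against injury. Summed over the libraries the share was 23 of 213 counts, 10.8% with a 95% Wilson interval of 7.30% to 15.7%. The share was set beside 665 pairs of a coding gene and 1 non-coding gene with overlapping exons on the other strand, all with at least 50 counts. The coding gene held a median of 7.46% of the counts of a pair, with quartiles of 0.823% and 53.3%, and 359 of the pairs had a lower coding share than Hand2. The low share of the coding gene was thus near the middle of such pairs and not particular to this locus.

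Per kb of annotated exon, both genes were closer than their counts. The length used for Hand2os1 is the 12840 merged exon bases of 37 transcripts, and where on them the counts fell is not known. On the scale of CPM per kb of exon, Hand2os1 stood at 7.89 ± 4.32 in sham, 3.998 ± 0.590 in injury and 4.84 ± 1.29 in CRC, and Hand2 at 6.002 ± 3.23, 2.46 ± 3.07 and 2.599 ± 1.30 (SD, n = 3 each). Within libraries, Hand2os1 was the higher one per kb in 7 of 9, the exceptions being sham replicate 1 (4.29 against 5.52) and injury replicate 1 (3.51 against 5.90). The mean difference in level was 1.89 ± 2.43 CPM per kb (SD, n = 9), with an exact two-sided sign-flip permutation p of 0.0547, where 0.00391 is the smallest possible. With the overlapping bases left out of both lengths but all counts kept, the difference was 1.19 ± 2.83 and the exact permutation p 0.230. That setting shortens Hand2 by 19.6% and Hand2os1 by 3.59%, which by itself makes the difference smaller, so it does not test reads in the overlap. With all exon bases, the mean difference without sham replicate 1 or injury replicate 1 was 2.27 and 2.42, with exact permutation p of 0.0391 and 0.0234. The comparison per kb was chosen after seeing the data.

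Within 250 kb of Hand2 the annotation placed 13 counted features, Hand2 and Hand2os1 included, of which 8 had at least 1 count and 2 were tested. The other tested feature was the long non-coding RNA gene Gm34030, 7.06 kb past the end of Hand2. The sham libraries held 6, 12 and 8 of its counts, the injury libraries 12, 8 and 7 and the CRC libraries 14, 13 and 9. Its groups overlapped, and its log2 fold changes were 0.04 (SE 0.58) between injury and sham, 0.26 (SE 0.56) between CRC and sham and 0.22 (SE 0.56) between CRC and injury. Neither tested feature was called in any comparison by edgeR's quasi-likelihood test or DESeq2's Wald test, and 1 of the 2, Hand2os1, had an unadjusted p under 0.05 in the comparison of injury with sham, where DESeq2 gave no adjusted p for either. Of all features 0.430% were called in that comparison and 12.6% had an unadjusted p under 0.05. Of the features that were not tested, 5033428I22Rik, opposite Gm34030, had 37 counts, the pseudogene Gm10284 had 71, and Sap30, which encodes a subunit of a histone deacetylase complex, had 1. Hmgb2, which encodes a chromatin protein abundant in dividing cells, was counted 2, 1 and 1 times in the sham libraries, 10, 6 and 3 times in the injury libraries and 0, 6 and 7 times in the CRC libraries. The injury libraries all lay above the sham libraries on Hmgb2, at counts too low for the test, and 15.7% of tested features did not overlap between these groups. Gm6012 had 1 count, and Scrg1, Gm34099, 2500002B13Rik, Gm17994 and Gm25379 had 0.

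The wider pathway was described with 22 genes of the progesterone, Indian hedgehog and stromal axis. Only 4 of them were tested by their own feature, and 12 had fewer than 10 counts in all libraries together. Bmp2, Areg, Fkbp5 and Foxo1 were at 0 counts in every library. The hedgehog ligand Ihh, made by the epithelium, was counted 4, 0 and 2 times in the CRC libraries and 0 times in the other 6. The receptor gene Ptch1 had 1 count in all, and the transcription factor gene Gli1 gave counts of 6, 15 and 1 for the sham libraries, 2, 4 and 3 for injury and 7, 2 and 2 for CRC. These counts were too low to compare the groups.

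The progesterone receptor gene Pgr had the most counts of the list, namely 67, 67 and 90 in the sham libraries, 57, 49 and 46 after injury and 90, 77 and 76 with CRCs. The injury libraries were below all others, while 15.7% of all tested features did not overlap between injury and sham (0.430% called) and 33.5% did not between CRC and injury (12.9% called). Its log2 fold change was -0.56 between injury and sham, with an adjusted p of 0.324 in edgeR's quasi-likelihood test. Nr2f2, a nuclear receptor of the stroma that acts after Indian hedgehog, came to 38, 42 and 40 counts in the sham libraries, 39, 48 and 47 after injury and 75, 91 and 78 with CRCs. The CRC libraries were all above the others on Nr2f2, while 35.5% of all tested features did not overlap between CRC and sham (20.0% called). It was the 1 gene of the list called higher between CRC and sham, at 249 ± 27.3 against 141 ± 16.2 CPM (SD, n = 3 each). The log2 fold change was 0.82 (SE 0.25, adjusted p = 0.0189 in edgeR's quasi-likelihood test). The call was lost without sham replicate 1 or 3 or CRC replicate 2 or 3, where the adjusted p of that test ranged from 0.0529 to 0.0939, and without the filter on low counts (0.0581).

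Features on the other strand of these genes were tested in 5 cases, Hand2os1 among them. Gm37587, opposite the transcription factor gene Sox17, came to 22, 23 and 24 counts in the sham libraries, 14, 17 and 14 after injury and 83, 60 and 66 with CRCs. All CRC libraries were above all others, beside the shares of 35.5% and 33.5% given for all features, and it was higher in CRC than in sham (log2 fold change 1.40, SE 0.30, adjusted p = 0.000967 in edgeR's quasi-likelihood test) and than in injury (2.01, SE 0.32, adjusted p = 3.21e-05 in the same test). Sox17 itself was not called, with log2 fold changes of 0.58 and 0.91 in these comparisons. Gm20402, opposite Foxo1, came to 107, 139 and 128 counts in the sham libraries, 114, 51 and 91 after injury and 68, 73 and 58 with CRCs. It was lower in CRC than in sham, with a log2 fold change of -1.11 (SE 0.24, adjusted p = 0.00120 in edgeR's quasi-likelihood test). B130024G19Rik, opposite Nr2f2, was called higher between CRC and injury, at 0.58 (SE 0.19, adjusted p = 0.0442 in edgeR's quasi-likelihood test), and that call was lost in DESeq2's Wald test (adjusted p = 0.0565), in edgeR's test without the filter (0.234) or with the replicate number as a block (0.0563), and without sham replicate 3, injury replicate 1 or 3 or any CRC replicate. Over the 6 fits without 1 library the adjusted p ranged from 0.0616 to 0.342, and the log2 fold change was lowest, 0.37, without injury replicate 1. Hoxa11os, opposite the homeobox gene Hoxa11, had the most counts, 6450 in all, and was not called.

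Between injury and sham, 0 of the 4 own and 0 of the 5 opposite features of this axis were called by edgeR's quasi-likelihood test, while 1 and 3 of them had an unadjusted p under 0.05 in edgeR's test, beside 0.430% of all features called and 12.6% at that unadjusted p. In that comparison DESeq2's Wald test gave no adjusted p for 4 of the 4 own and 2 of the 5 opposite features and called 0 of the other 3. The own and the opposite features of the axis had median log2 fold changes of -0.34 and -0.56, compared with -0.01 over all features. Between CRC and sham, 1 own feature was called higher and 0 lower, and 1 opposite feature was called higher and 1 lower, beside 8.03% of all features higher and 12.0% lower. With library sizes that include reads outside features, 643 features were higher and 281 lower in that comparison, in place of 299 and 447. Between CRC and injury that setting gave 334 and 189, in place of 190 and 291. In the main fit the medians of the own and opposite features between CRC and sham were 0.25 and -0.05, compared with 0.03 over all features. Between CRC and injury 0 own and 2 opposite features were called higher and 0 lower, beside 5.10% higher and 7.82% lower. DESeq2's Wald test called 0 and 1, and 2 and 4 had an unadjusted p under 0.05 in edgeR's test, as 24.7% of all features did. There the medians were 0.57 and 0.42, compared with 0.01 over all features.

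Fibroblast growth factor signalling, on which Hand2 is known to act in the stroma, was followed with 15 genes, of which 3 were tested by their own feature. Fgf10, a ligand made by mesenchymal cells, came to 31, 49 and 37 counts in the sham libraries, 22, 31 and 47 after injury and 6, 11 and 25 with CRCs. Its CRC libraries were below all sham libraries, a lack of overlap seen for 35.5% of tested features, at 42.8 ± 30.0 against 138 ± 40.7 CPM (SD, n = 3 each). The log2 fold change was -1.68 (SE 0.41, adjusted p = 0.00380 in edgeR's quasi-likelihood test) between CRC and sham and -1.44 (SE 0.42, adjusted p = 0.0185 in the same test) between CRC and injury. The second of these calls was lost without injury replicate 3, CRC replicate 1 or CRC replicate 2, with adjusted p of 0.160, 0.140 and 0.101 in edgeR's quasi-likelihood test. Fgf2 had 922 counts and log2 fold changes of 0.00 to 0.14, and Fgf1 had 89 counts and log2 fold changes of -0.80 between injury and sham and -1.05 between CRC and sham, and neither was called in any comparison.

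Nudt6, which overlaps Fgf2 on the other strand, came to 86, 55 and 74 counts in the sham libraries, 91, 71 and 60 after injury and 40, 35 and 34 with CRCs. All CRC libraries were below all others, beside 35.5% of tested features without overlap against sham and 33.5% against injury, with a log2 fold change of -1.17 (SE 0.26, adjusted p = 0.00132 in edgeR's quasi-likelihood test) against sham and -1.22 (SE 0.26, adjusted p = 0.00124 in the same test) against injury. Of the list, 0 own features were called between injury and sham and 0 had an unadjusted p under 0.05 in edgeR's test, while DESeq2's Wald test gave an adjusted p for 1 of the 3 and did not call it, beside 0.430% of all features called. In each comparison with CRC 1 was called lower, beside 12.0% of all features against sham and 7.82% against injury. The median log2 fold changes of the 3 own features were -0.24, -1.05 and -0.25 in injury against sham, CRC against sham and CRC against injury. Fgf7, Fgf18, Frs2 and Spry4 were at 0 counts, Fgf9 had 7 counts, all in sham replicate 1, and the receptor genes Fgfr1, Fgfr2 and Fgfr4 had 2 counts each. Whether Hand2 and these ligands moved together was not tested.

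Of 10 genes for helix-loop-helix partners and inhibitors of Hand2, 0 were tested by their own feature. They had 57 counts in all, with 0 on Hand1, the closest relative of Hand2, and 13, 7 and 5 on the partner genes Tcf3, Tcf4 and Tcf12. Gm29100, opposite Twist2, was tested and not called, with log2 fold changes of -0.21, -0.20 and 0.01 in the order given for the growth factors. Among 6 genes that the study names as hubs, only the secreted Wnt inhibitor gene Sfrp2 was tested by its own feature. It came to 16, 14 and 17 counts in the sham libraries, 20, 16 and 36 after injury and 59, 28 and 32 with CRCs. It was called higher between CRC and sham, with a log2 fold change of 1.14 (SE 0.38, adjusted p = 0.0334 in edgeR's quasi-likelihood test), beside 8.03% of all features called higher. DESeq2's Wald test gave an adjusted p of 0.0542, and the edgeR call was lost without any 1 of the 3 sham libraries or CRC replicate 1, with an adjusted p of 0.0607, 0.0507, 0.0617 and 0.278, and without the filter on low counts (0.0674). Since the study chose these genes on the same libraries, this is not independent evidence.

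Markers of the stroma were followed with 11 genes, Hand2 among them. In whole tissue they cannot show which cells the counts on Hand2 and Hand2os1 came from. The 11 genes summed to 84, 101 and 131 counts in the sham libraries, 76, 94 and 84 after injury and 118, 117 and 117 with CRCs. Nr2f2 made up 498 of 922. The defining marker Pdgfrb was at 0 in every library, and Dcn, Lum and Pdgfra had 4, 4 and 19 counts, so the label of uterine stroma rests on few counts. Of the 4 markers tested, 0 were called between injury and sham, where 1 had an unadjusted p under 0.05 in edgeR's test and DESeq2 gave no adjusted p for any of the 4, beside 0.430% of all features called and 12.6% at that unadjusted p. Between CRC and injury 0 were called, 1 had an unadjusted p under 0.05 in edgeR's test, and DESeq2's Wald test called 0, beside 12.9% and 24.7% of all features in edgeR's test. Between CRC and sham 1 was called higher and 2 lower, beside 8.03% and 12.0% of all features. Col1a1 counts were 10, 16 and 28, then 5, 6 and 11, then 3, 2 and 4 in sham, injury and CRC libraries, and those of Col3a1 were 10, 23 and 14, then 8, 7 and 11, then 6, 4 and 4. The lower ones were the collagen genes Col1a1, with a log2 fold change of -2.74 (SE 0.66, adjusted p = 0.00323 in edgeR's quasi-likelihood test), and Col3a1, with -1.93 (SE 0.61, adjusted p = 0.0219 in the same test). The call of Col1a1 was lost without sham replicate 3 (adjusted p = 0.0561 in edgeR's quasi-likelihood test), and that of Col3a1 without sham replicate 2, CRC replicate 2 or CRC replicate 3, with an adjusted p of 0.125, 0.0770 and 0.0731, or without the filter (0.0898).

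Markers of the other cell types of the uterus were given beside the locus. The 10 epithelial markers had 54 counts in all, 27 of them on Muc1, with Cdh1 and Foxa2 at 0 and 0 genes tested, and library sums of 13, 8 and 5 for sham, 2, 6 and 4 for injury and 6, 7 and 3 for CRC. The 8 smooth muscle markers summed to 123, 151 and 137 counts in the sham libraries, 84, 95 and 90 after injury and 79, 76 and 102 with CRCs, with Myh11, the smooth muscle myosin heavy chain gene, the most abundant at 459 counts. Their summed raw count was lower in every injury library than in every sham library, beside 15.7% of tested features whose CPM did not overlap between these groups. Myh11 made up 459 of the 937 counts, with 68, 81 and 78 in sham and 42, 45 and 35 after injury. The other markers went both ways. Tagln had 20, 26 and 23 in sham and 18, 21 and 15 after injury, and Cnn1 had 1, 3 and 6 and then 4, 4 and 11. Of 3 tested, Myh11 was called lower between CRC and sham (log2 fold change -1.25, SE 0.30, adjusted p = 0.00299 in edgeR's quasi-likelihood test). Tagln (-1.13, adjusted p = 0.0528 in the same test) and Lmod1 (0.13, adjusted p = 0.872 in the same test) were not called. With CRCs the counts on Cnn1, which was not tested, were 8, 12 and 3. Opposite features of smooth muscle markers were tested in 3 cases, and all 3, Gm48529 and Pcsk7 opposite Tagln and Gm11946 opposite Smtn, were called lower between CRC and sham, where 12.0% of all features were called lower. The call of Pcsk7 was lost with library sizes that count reads outside features (adjusted p = 0.0622 in edgeR's quasi-likelihood test) and without sham replicate 3, CRC replicate 2 or CRC replicate 3 (0.0546, 0.110 and 0.0598) or the filter (0.0857). Between CRC and injury Gm48529 and Pcsk7 were called lower, beside 7.82% of all features, Pcsk7 not without CRC replicate 2 (adjusted p = 0.0706 in edgeR's quasi-likelihood test). Between injury and sham 0 of the 3 own and 0 of the 3 opposite features were called, 1 and 2 had an unadjusted p under 0.05 in edgeR's test, and DESeq2's Wald test called 1 of the opposite features and gave no adjusted p for 3 own and 1 opposite, beside 0.430% of all features called and 12.6% at that unadjusted p in edgeR's test.

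The 6 leukocyte markers had 63 to 79 counts per sham library, 49 to 63 per injury library and 35 to 45 per CRC library. Nearly all were on Csf1r, with 496 of 498, while Ptprc, Adgre1, Lyz2 and Cd3e were at 0. Csf1r, a receptor gene of macrophages, was called lower between CRC and sham (log2 fold change -1.04, SE 0.26, adjusted p = 0.00430 in edgeR's quasi-likelihood test), beside 12.0% of all features. The 6 endothelial markers summed to 3 to 15 counts per library in sham, 5 to 7 in injury and 7 to 19 in CRC, led by Emcn with 48 of 82 and with Tie1 at 0. The 4 mesothelial markers had 31 counts, 18 of them on Lrrn4, with Upk3b at 0 and between 0 and 7 per library, and 0 genes of both lists were tested. The part that the makeup of the tissue had in the values of Hand2 and Hand2os1 was not tested.

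The features most like Hand2os1 over the 9 libraries were sought among the 940 tested features that averaged 50 counts or more per library, by Pearson correlation of log2 CPM. The highest r was 0.94 for Etohd2, a non-coding gene (Spearman rho 0.93), followed by 0.93 for Chrnb2, which encodes a subunit of nicotinic acetylcholine receptors (rho 0.97), and 0.92 for Rsbn1l (rho 0.78). Next came Gm45290 with r = 0.89 (rho 0.72) and Gm37376, which lies opposite the nuclear RNA gene Malat1, also with r = 0.89 (rho 0.67). On the other strand, Etohd2 overlaps Isca1 and Tut7, Chrnb2 overlaps Adar, and Rsbn1l overlaps A630072M18Rik. The strand of their counted RNA was not tested. The median r over the 940 features was 0.01, with quartiles of -0.34 and 0.36.

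Gm37376 had 23015 CPM in sham replicate 1, 51957 in sham replicate 2 and 37049 in sham replicate 3, and 23006 to 29726 in the other libraries. As with Hand2os1, sham replicate 2 was the highest library for each of these 5 features. Without the libraries farthest from the median of Hand2os1, sham replicates 2 and 3, r was 0.82 for Etohd2, 0.85 for Chrnb2, 0.63 for Rsbn1l, 0.68 for Gm45290 and 0.28 for Gm37376 over 7 libraries, so that the last relation rested on the libraries left out. The lowest r was -0.98 for Tasor, a gene for a component of a silencing complex (rho -0.93), then -0.95 for Rrnad1 (rho -0.92) and -0.91 for Zranb1, a gene for a deubiquitinating enzyme (rho -0.72). Rrnad1 overlaps Isg20l2 and Mrpl24 on the other strand, and Zranb1 overlaps 1500002F19Rik. Tasor came to 98, 26 and 49 counts in the sham libraries, 88, 84 and 92 after injury and 76, 117 and 74 with CRCs, with sham replicate 2 the lowest library. Without sham replicates 2 and 3 its r was -0.91, that of Rrnad1 -0.79 and that of Zranb1 -0.70. None of these 8 features was called by edgeR's quasi-likelihood test or DESeq2's Wald test in any comparison, and 3, 1 and 0 of them had an unadjusted p under 0.05 in edgeR's test between injury and sham, CRC and sham, and CRC and injury, beside 12.6%, 32.1% and 24.7% of all features. The relations describe these libraries, in which the high number of uncounted records on more than 1 feature was found in sham replicates 2 and 3, and its part in them was not tested.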

How the data were processed

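RNA of mouse uterus on day 7 was sequenced in 9 libraries, with groups and replicate numbers as labelled. The authors deposited a raw count of reads per named feature, with 5 further rows for records that name no gene, which held 99.2% of all records and were left out of library sizes and tests. The submitters' processing notes name HISAT2 2.1.0 and StringTie 2.1.1. The names of these rows are those of htseq-count, whose version and strand setting are not given in the sources used here.

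DESeq2 1.42.0, limma 3.58.1 and edgeR 4.0.16 were run in R 4.3.3. Exact tests and plots used Python 3.11.15, pandas 2.3.3, scipy 1.17.1, numpy 2.4.6 and matplotlib 3.10.9. After filterByExpr, 3722 features remained and TMM factors were applied. A robust quasi-likelihood model of edgeR covered the 9 libraries with group as its only term, and the groups were compared by pairs, also with the counts of Hand2 and Hand2os1 replaced by their sum. Features with a Benjamini-Hochberg adjusted p under 0.05 were called, and SEs were taken as the log2 fold change over the root of the F statistic. The procedure was tested on simulated data of CRC and sham, with 200 of 3722 features changed. It recovered 82.8% of 4-fold and 29.7% of 2-fold changes, with 5.09% false calls. Single values were compared by exact permutation tests over libraries. Positions came from GENCODE M21, in which 53462 features matched a gene by a unique name, and start regions from RefSeq on GRCm38.p6, where both members matched. The version of the annotation that the study names was not used here.

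Named genes were the members and every feature within 250 kb of Hand2. Genes of the written lists, or features opposite them, were named where tested or on the axis or hub list. The 5 features with the highest and the 3 with the lowest correlation with Hand2os1 at a prior count of 2 were also named. Genes overlapping these on the other strand were named as well. Low counts of other list genes, such as those of the markers, were named after their values were seen. The members and lists were chosen with earlier results of these data known. Alternatives were DESeq2's size factors, upper quartile scaling, library sizes that include reads outside features, no filter, a minimum of 10 counts in each library, the compared groups fitted alone, the replicate number as a block, DESeq2's Wald test, an adjusted p under 0.01, a prior count of 0.5, rank correlation, and leaving out each library. The comparison per kb of exon and the alternatives for the called genes of the lists were added after seeing the data.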

Additional observations from a re-analysis of the deposited data

How the results depend on the processing

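In each comparison, Hand2os1 kept its direction in all 17 alternatives of edgeR's quasi-likelihood test or DESeq2's Wald test and had an adjusted p above 0.05 wherever one was given, which DESeq2 did not do between injury and sham. Its log2 fold change ranged from -1.26 to -0.45 between injury and sham, where the unadjusted p was under 0.05 in 14 of them, from -1.01 to -0.20 between CRC and sham and from 0.14 to 0.47 between CRC and injury. The locus sum kept its direction as well. It was called in 1 alternative, between CRC and sham without sham replicate 1 (-1.04), and with 1 library left out ranged from -1.04 to -0.26 there, from -1.27 to -0.49 between injury and sham and from 0.10 to 0.44 between CRC and injury. Leaving out 1 library, the CPM difference of Hand2 ranged from -12.4 to -4.27 between injury and sham, from -11.5 to -3.95 between CRC and sham and from -2.58 to 4.36 between CRC and injury. The last was 0.315 with all libraries and reversed without injury replicate 2 (-2.58), injury replicate 3 (-0.829) or CRC replicate 1 (-1.20), and the cause was not tested. The mean Hand2 share of the locus ranged from 9.15% to 12.1%. The difference per kb of exon, chosen after seeing the data, ranged from 1.54 to 2.42 CPM per kb with 1 library left out and had an exact permutation p under 0.05 without sham replicate 1 (2.27) or injury replicate 1 (2.42). Of the 5 features most like Hand2os1, 5 were kept with a prior count of 0.5 and 2 by Spearman's rho.

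At an adjusted p under 0.01 in edgeR's quasi-likelihood test, 5 features were called between injury and sham, 437 between CRC and sham and 289 between CRC and injury. The compared groups alone gave 6 between injury and sham, 636 between CRC and sham and 708 between CRC and injury. With 1 library left out the counts ranged from 3 to 154, from 505 to 894 and from 330 to 660. With library sizes that include reads outside features, 643 features were higher and 281 lower between CRC and sham, compared with 299 and 447, and 334 were higher and 189 lower between CRC and injury, compared with 190 and 291. With the replicate number as a replicate block, the log2 fold changes of Hand2os1 were -0.92, -0.61 and 0.31, and 5, 682 and 425 features were called. Libraries of the same number had correlations of their deviations from the group mean between -0.0964 and 0.0801. For libraries of different groups and numbers these were between -0.0688 and 0.115. No pairing by number was seen, and a shared batch was not tested. The low number of counts on features, 0.776% to 0.898% of the records of a library, limits Hand2 in that 1 count was worth at least 3.05 CPM.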
